A study of Mus musculus with 8 samples.

Results

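Gluconeogenesis, the making of new glucose from lactate, glutamine, glycerol and other precursors, takes place in the liver and in the proximal tubule of the kidney. The 8 genes followed here encode its committed enzymes and a pair of their transcriptional regulators. The rule that selects them uses symbols and no measured values, although earlier results of these data were known when it was set. It takes the rows whose Ensembl gene identifiers carry the symbols *Pck1*, *Pck2*, *G6pc*, *Fbp1*, *Fbp2*, *Pcx*, *Ppargc1a* and *Foxo1* in GENCODE M21. All 8 were found among the 55401 genes listed for each kidney, each with 1 row, and all 8 passed the filter on low counts.

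Pyruvate carboxylase (*Pcx*) turns pyruvate into oxaloacetate, phosphoenolpyruvate carboxykinase (cytosolic *Pck1*, mitochondrial *Pck2*) turns oxaloacetate into phosphoenolpyruvate, fructose-1,6-bisphosphatase (*Fbp1*, with *Fbp2* as the muscle isozyme) removes a phosphate further up, and the glucose-6-phosphatase catalytic subunit (*G6pc*) releases free glucose. In liver, cAMP drives *Pck1* and *G6pc* through the transcription factor CREB and its CRTC coactivators, which salt-inducible kinases (SIKs) hold in the cytoplasm by phosphorylation. *Ppargc1a* encodes a coactivator induced by CREB, and *Foxo1* encodes a forkhead factor that insulin signaling removes from the nucleus.

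RNA-Seq was performed on whole kidneys of 4 control mice, labelled SIK1f/f, SIK2f/f and SIK3f/f, and 4 SIK mutant mice, labelled with the same floxed alleles plus Six2-Cre. Floxed alleles are flanked by loxP sites and remain functional until Cre recombines them, so the controls carried them too. Six2-Cre acts in nephron progenitors and their descendants, and the stromal and hematopoietic cells of a whole kidney lack it. The labels give both *Sik1* alleles as floxed in the mutants, whereas the study's text states that such triple mutants did not survive and describes mice with 1 floxed *Sik1* allele, so the group is called SIK mutant here. No sex, age, litter or batch is given in the labels, and p-values therefore measure the spread between these kidneys only.

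Depth was even, with 10179648 to 10925100 counts per kidney. *Sik3* was measured at 58.6, 66.5, 65.7 and 61.0 CPM, counts adjusted to 1 library size, in controls 1 to 4 and at 41.4, 39.7, 43.1 and 33.7 in mutants 1 to 4, which did not overlap. *Sik2* was at 7.97 to 9.95 CPM in controls and 4.50 to 9.30 in mutants, which overlapped (unadjusted edgeR p 0.0645). *Sik1* was higher in every mutant than in every control, at 43.4 to 54.1 against 36.8 to 43.2 CPM (log2 fold change 0.31, unadjusted edgeR p 0.0088, FDR 0.601). The summed level of 10 proximal tubule markers, in TPM, transcripts scaled to gene length and library total, was 5914 to 7005 in controls and 5677 to 6170 in mutants, and that of 7 distal nephron markers was 1562 to 2308 and 1810 to 2625. None of these markers was at 0 in every kidney. At an unadjusted edgeR p under 0.05 (6.36% of all tested genes), 2 of the 10 proximal tubule markers were lower over 8 kidneys, *Slc5a2*, the glucose cotransporter SGLT2, at a log2 fold change of -0.67 (FDR 0.0697) and *Miox* at -0.34 (FDR 0.713), and 0 were higher. By sign alone 6 of the 10 were lower and 4 higher. Controls 3 and 4 stood apart: they held *Xist* at 260.5 and 298 CPM and at most 0.175 CPM of 4 Y-linked genes, whereas the other 6 kidneys held 76.8 to 94.9 CPM of these Y-linked genes. All 4 mutants were among these 6, so the comparison over 8 kidneys sets controls mixed in these transcripts against mutants that were not. Each result is therefore given over all 8 kidneys and over the 6 with Y-linked reads, which leaves 2 controls against 4 mutants.

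Promoter sequences of all 8 genes, from 250 bases before to 50 bases after the annotated start, were taken from RefSeq (GRCm38.p6) as 9 windows, since *Pcx* has 2. The promoters of *Pck1* and *G6pc* are shown because both are known targets of cAMP in liver and over all 8 kidneys these genes had the largest fold changes among the 8. Capitals mark motifs that were searched on both strands.
*Pck1*, chr2:173152823-173153122, plus strand: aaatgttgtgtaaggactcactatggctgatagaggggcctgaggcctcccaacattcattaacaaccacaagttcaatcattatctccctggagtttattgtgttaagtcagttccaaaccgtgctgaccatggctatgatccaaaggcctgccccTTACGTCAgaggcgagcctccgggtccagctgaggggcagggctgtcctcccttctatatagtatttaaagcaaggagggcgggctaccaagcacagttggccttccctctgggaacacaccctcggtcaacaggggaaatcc
*G6pc*, chr11:101367466-101367765, plus strand: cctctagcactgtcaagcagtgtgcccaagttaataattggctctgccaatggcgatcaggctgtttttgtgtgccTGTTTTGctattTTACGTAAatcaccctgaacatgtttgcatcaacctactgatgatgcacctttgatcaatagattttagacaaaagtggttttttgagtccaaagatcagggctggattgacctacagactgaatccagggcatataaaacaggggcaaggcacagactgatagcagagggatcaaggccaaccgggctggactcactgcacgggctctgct
The capitals in *Pck1* are TTACGTCA, the cAMP response element TGACGTCA with 1 changed base, at -93 to -86 from the start. This variant was held by 0.499% of all 32851 windows. Those in *G6pc* are TGTTTTG, the reverse complement of CAAAACA, the core of insulin response sequences, at -174 to -168, and TTACGTAA at -162 to -155. CAAAACA was present in 6.28% of windows, among them those of *G6pc*, *Fbp2* and *Pck2*, and TTACGTAA in 0.119%. The full cAMP response element, TGACGTCA, was in 0 of the 9 windows and 1.79% of all, and the forkhead motif GTAAACA in 0 of 9 and 3.65%. The half-site TGACG, which overlaps the longer motifs, was in 20.8% of all windows and in those of *Pck1* (within TTACGTCA), *Ppargc1a* and *Fbp2*. The latter pair are shown with the half-site, read as its reverse complement CGTCA, in capitals.
*Ppargc1a*, chr5:51567757-51567786, minus strand: ggtgccctcccaCGTCActgagctccagtg
*Fbp2*, chr13:62858480-62858509, minus strand: ggcagctgccacCGTCAgggagggaggcca
The half-site lay at -49 to -45 in *Ppargc1a* and at -97 to -93 in *Fbp2*. These matches describe letters in the windows, and no binding was measured here.

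Levels can be compared between genes only per length, so TPM was used. Averaged over 8 kidneys, *Fbp1* was highest at 604 TPM, followed by *Pck1* at 447, *G6pc* at 245 and *Pcx* at 102. The others were far lower, with *Fbp2* at 14.5 TPM, *Ppargc1a* at 9.50, *Foxo1* at 5.46 and *Pck2* at 5.34. Ranges over kidneys separated *G6pc* from *Pcx*, *Pcx* from *Fbp2* and *Ppargc1a* from *Foxo1*. They overlapped for *Fbp1* and *Pck1*, for *Pck1* and *G6pc*, for *Fbp2* and *Ppargc1a*, and for *Foxo1* and *Pck2*. The mitochondrial isozyme *Pck2* made up 0.638% to 2.10% of the TPM of both *Pck* genes, and *Fbp2* made up 1.12% to 5.07% of that of both *Fbp* genes.

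**Figure D1:**
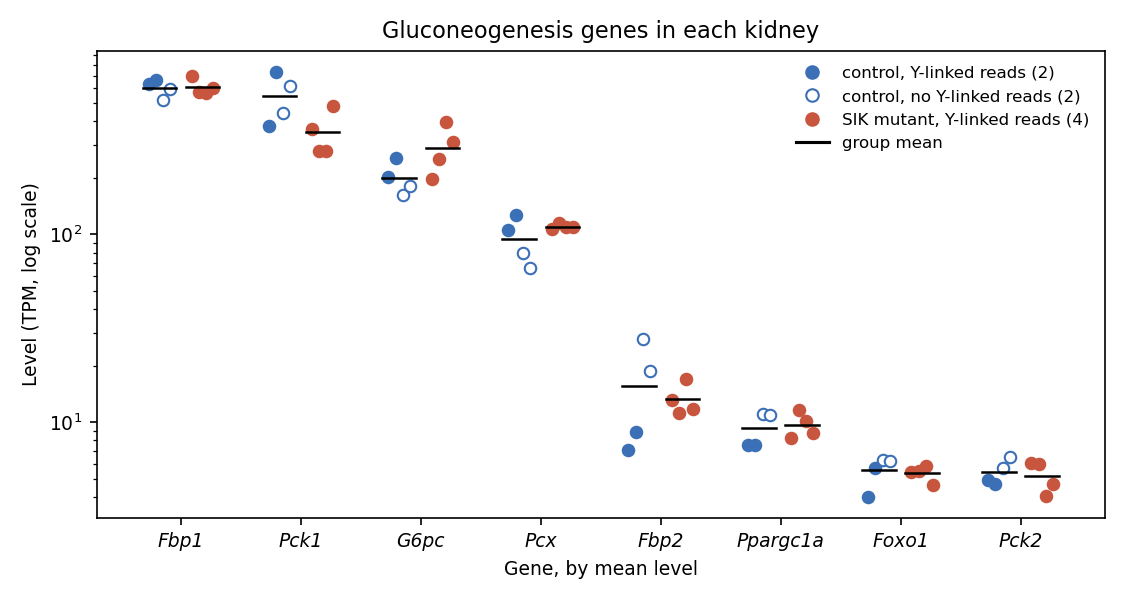
Level of each gene in each kidney in TPM on a log axis, ordered by mean level, with black bars at the group means. Filled points are kidneys with Y-linked reads, and open points are controls 3 and 4. The 2 open control points of *Pcx* lie below all other kidneys, at 65.9 and 79.8 TPM, and those of *Fbp2* lie above them, at 18.9 and 27.7 TPM.

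The comparison of SIK mutants with controls addresses the transcripts of renal glucose production in kidneys whose nephrons carry Cre and the floxed kinase genes; of the kinases, only *Sik3* was lower without overlap. In edgeR's quasi-likelihood test, 0 of the 8 genes were called at a false discovery rate (FDR) under 0.05, as were 0 (0.0%) of all 14326 genes tested. At an unadjusted p under 0.05, 1 of the 8 was lower (*Pck1*) and 0 were higher, beside 515 (3.59%) of all tested genes lower and 396 (2.76%) higher. DESeq2, whose Wald test called 71 of 18344 genes (0.387%) at FDR under 0.05, called 0 of the 8 and likewise gave only *Pck1* an unadjusted p under 0.05, beside 3.89% of all genes. The median log2 fold change of the 8 was -0.08, beside -0.0038 for all tested genes. The groups overlapped in CPM for each of the 8 genes, whereas 578 (4.03%) of all tested genes had groups that did not.

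*Pck1*, the cytosolic phosphoenolpyruvate carboxykinase (chr2:173153048-173159273), carried the largest difference. It was measured at 1006, 1867, 980 and 1383 CPM in controls 1 to 4 and at 798, 592, 599 and 1185 CPM in mutants 1 to 4. Mutants 1 to 3 lay below every control, while mutant 4 lay above controls 1 and 3, so the groups overlapped. Means were 1309 ± 415 CPM in controls and 793 ± 278 in mutants (SD, n = 4 each). The log2 fold change was -0.72 (SE 0.274, 95% interval -1.34 to -0.11), a 39.4% lower level, with an unadjusted edgeR p of 0.0258 and FDR of 0.722. A two-sided exact permutation test of the CPM gave p = 0.0857, where 0.0286 is the smallest that 4 against 4 allows. In TPM, *Pck1* was at 377, 732, 442 and 619 in controls and at 365, 279, 277 and 483 in mutants, so that mutant 1 lay just below control 1 on that scale.

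The lower *Pck1* level was also present over the 6 kidneys with Y-linked reads, with a log2 fold change of -0.85 (SE 0.313, 95% interval -1.56 to -0.14), an unadjusted edgeR p of 0.0248 and FDR of 0.381. With DESeq2 and with limma on log2(TPM + 1) the unadjusted p over these 6 was 0.0647 and 0.0634. Control 1, at 1006 CPM, lay below mutant 4 at 1185 CPM there too. The difference rested partly on control 2, the highest kidney. Without it the log2 fold change was -0.50 with an unadjusted edgeR p of 0.0847. Without mutant 1 the p was 0.050001, without mutant 2 or mutant 3 it was 0.0736 or 0.0714, and without mutant 4 the log2 fold change was -0.98 with p of 0.0038.

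*G6pc*, whose product completes glucose release (chr11:101367561-101377903), had the opposite sign. It was at 488, 584, 326 and 364 CPM in controls and at 391, 486, 785 and 687 CPM in mutants. Mutants 3 and 4 lay above every control, while mutants 1 and 2 lay within the control range. Means were 441 ± 118 and 587 ± 181 CPM (SD, n = 4 each), and the log2 fold change was 0.41 (SE 0.250, 95% interval -0.15 to 0.97, unadjusted edgeR p 0.129, FDR 0.823). With the 6 kidneys it was 0.14 (SE 0.255, 95% interval -0.44 to 0.72, unadjusted edgeR p 0.596, FDR 0.864), where controls 1 and 2 were the higher controls. Limma on log2(TPM + 1) gave 0.51 over 8 kidneys with an unadjusted p of 0.0386 and FDR of 0.602. The edgeR p also passed below 0.05 without control 2 (log2 fold change 0.58, p 0.0499) or without mutant 1 (0.57, p 0.0405), and without mutant 3 the log2 fold change was 0.24.

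*Pck1* and *G6pc* ranked the kidneys differently. The ratio of *G6pc* to *Pck1* TPM was 0.537, 0.347, 0.367 and 0.292 in controls 1 to 4 and 0.539, 0.907, 1.44 and 0.640 in mutants 1 to 4. Every mutant lay above every control, although mutant 1 and control 1 were nearly equal. This ratio was chosen after its values were seen and was not tested.

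**Figure D2:**
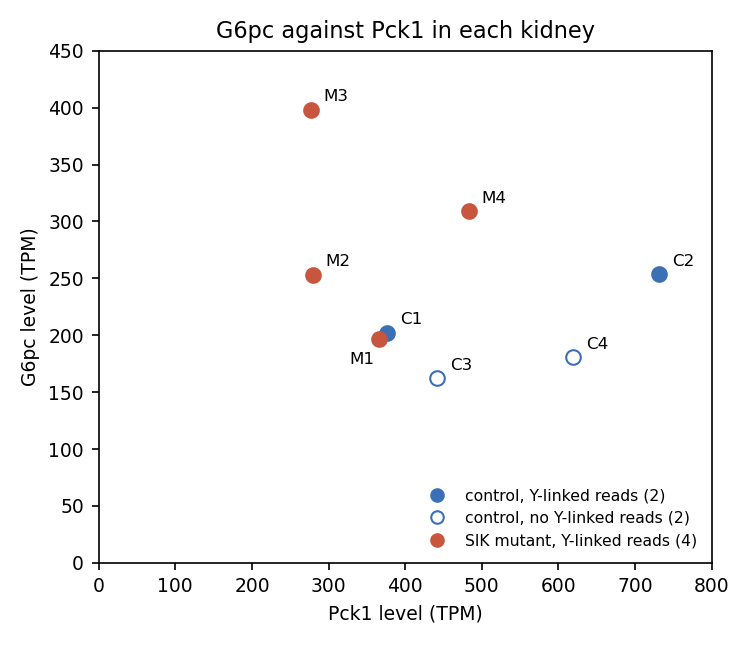
*G6pc* level against *Pck1* level in each kidney, both in TPM on linear axes from 0, with controls labelled C1 to C4 and mutants M1 to M4. Mutant 3 combines the lowest *Pck1* level (277 TPM) with the highest *G6pc* level (398 TPM), and mutant 1 lies beside control 1.

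Liver and fat also express *Pck1*, and liver expresses *G6pc*, so markers of both were summed in each kidney. Of 8 hepatocyte markers, 0 were at 0 in every kidney, and their sum was 59.0 to 200 TPM in controls and 476 to 641 in mutants. Single markers did not all follow the sum. Over 8 kidneys the log2 fold change was above 0 for 4 of the 6 tested and below 0 for 2, with a median of 0.16 and a minimum of -0.60. Over the 6 kidneys it was above 0 for 5 and below 0 for 1, at -0.30. At an unadjusted edgeR p under 0.05, 1 of the 6 tested was higher over 8 kidneys, *Ttr*, at 92.6, 141, 19.8 and 45.1 CPM in controls and 437, 452, 359 and 499 in mutants. Over the 6 kidneys *Ttr* (FDR 0.0118) and *Fgb* (log2 fold change 1.87, p 0.0196) were higher. *Serpina1a* was at 73.4, 41.0, 9.25 and 6.13 CPM in controls and 118, 29.97, 46.7 and 80.8 in mutants, which overlapped (log2 fold change 1.10, p 0.158). *Alb*, a defining hepatocyte transcript, was at 3.45 to 9.69 CPM and *Ahsg* at 0 to 0.0962 CPM over all 8 kidneys. Of 8 adipocyte markers, 0 were at 0 everywhere. Their sum was 26.8, 37.6, 376 and 100 TPM in controls 1 to 4 and 262 to 365 in mutants, and *Adipoq*, *Plin1*, *Cidec* and *Cfd* were at 0 in control 1. Over the 6 kidneys all 8 were higher at an unadjusted edgeR p under 0.05, of which 5 passed FDR under 0.05, and over 8 kidneys 1 of the 7 tested was higher, with 0 at FDR under 0.05. Of 5 adrenal cortex markers, 1 was at 0 everywhere and their sum was at most 1.81 TPM. The part of the hepatocyte and adipocyte markers in the *Pck1* and *G6pc* values was not tested. In whole kidneys, fewer cells of a type and less RNA per cell cannot be told apart.

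*Fbp1*, the gluconeogenic bisphosphatase and the most abundant of the 8 (chr13:62864753-62888282), was at 861, 872, 594 and 685 CPM in controls and at 789, 633, 640 and 760 CPM in mutants. All mutants lay within the control range. The log2 fold change was -0.09 (SE 0.148, 95% interval -0.43 to 0.24, unadjusted edgeR p 0.542), and it changed sign with limma on log2(TPM + 1), to 0.02. Among the 6 kidneys the mutants lay below both controls, and the log2 fold change was -0.29 (SE 0.121, 95% interval -0.56 to -0.011, unadjusted edgeR p 0.0431, FDR 0.432). In TPM that separation was absent, with mutant 1, at 693, above control 1 at 628 and control 2 at 665. Limma on log2(TPM + 1) over the 6 kidneys gave -0.09 with an unadjusted p of 0.390.

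*Pcx*, which feeds pyruvate into the pathway (chr19:4510472-4621752), was tightly grouped in the mutants and spread in the controls. It was at 442, 489, 282 and 228 CPM in controls and at 363, 381, 367 and 422 CPM in mutants. The mutants lay between controls 1 and 2 above them and controls 3 and 4 below them. The coefficient of variation of the TPM was 28.8% in controls and 3.27% in mutants. In CPM the means were 360 ± 125 in controls and 383 ± 26.7 in mutants (SD, n = 4 each). The spread in controls lay mainly between controls 1 and 2, with Y-linked reads, and controls 3 and 4, without them. Over 8 kidneys the log2 fold change was 0.09 (SE 0.222, 95% interval -0.41 to 0.59, unadjusted edgeR p 0.696). With the 6 kidneys it was reversed, at -0.27 (95% interval -0.50 to -0.043, unadjusted edgeR p 0.0251, FDR 0.382), with both controls above all mutants. The exact permutation p was 0.0667, the smallest that 2 against 4 allows. In TPM control 1, at 105, lay just below all mutants, at 106 to 115, so these groups overlapped on that scale, and limma on log2(TPM + 1) gave -0.08 with an unadjusted p of 0.456. *Pcx* overlaps *Lrfn4* on the opposite strand, which held 1.92% as many counts as *Pcx*, and use of strand in the counting is not given in the sources used here.

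*Fbp2*, the muscle isozyme (chr13:62836877-62858422), was at 8.83, 10.6, 28.8 and 19.7 CPM in controls and at 13.6, 11.2, 17.5 and 13.6 CPM in mutants. Controls 1 and 2 were the lowest kidneys and controls 3 and 4 the highest. Over 8 kidneys the log2 fold change was -0.29 (SE 0.339, 95% interval -1.05 to 0.47, unadjusted edgeR p 0.420). In the 6 kidneys it was 0.54 (SE 0.199, 95% interval 0.083 to 0.99, unadjusted edgeR p 0.0256, FDR 0.384), and all 4 mutants lay above both controls in CPM and in TPM. Limma on log2(TPM + 1) gave 0.67 there with an unadjusted p of 0.0066 and FDR of 0.230. The exact permutation p was 0.2. Of 7 skeletal muscle markers, 2 were at 0 in every kidney, and their sum was 1.54 to 3.01 TPM in controls and 0.83 to 3.26 in mutants.

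*Pck2*, the mitochondrial carboxykinase (chr14:55540266-55551242), was at 11.7, 12.1, 14.1 and 14.8 CPM in controls and at 13.0, 12.2, 11.2 and 13.6 CPM in mutants. The groups overlapped almost fully. Its log2 fold change was -0.07 (SE 0.118, 95% interval -0.34 to 0.19, unadjusted edgeR p 0.542), and it was 0.09 over the 6 kidneys.

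Among the regulators, *Ppargc1a* (chr5:51454250-51567726) was at 52.2, 49.0, 61.7 and 61.6 CPM in controls and at 45.3, 61.1, 54.9 and 54.3 CPM in mutants. Controls 3 and 4 were the highest kidneys and mutant 1 the lowest. The log2 fold change was -0.06 (SE 0.115, 95% interval -0.32 to 0.20, unadjusted edgeR p 0.618), but 0.10 over the 6 kidneys and 0.07 over 8 with limma on log2(TPM + 1). *Foxo1* (chr3:52268336-52353221) was at 37.2, 50.6, 48.7 and 48.0 CPM in controls and at 41.5, 40.2, 44.1 and 39.5 CPM in mutants. All 4 mutants lay below controls 2 to 4 and above control 1. Its log2 fold change was -0.16 (SE 0.104, 95% interval -0.39 to 0.075, unadjusted edgeR p 0.160), -0.08 over the 6 kidneys, and 0.13 over the 6 with limma on log2(TPM + 1). Without control 1 it was -0.25 with an unadjusted edgeR p of 0.0134 and FDR of 0.479. RSEM's posterior standard deviation was 0 in every kidney for all 8 genes, so no counts were shared with another gene.

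**Figure D3:**
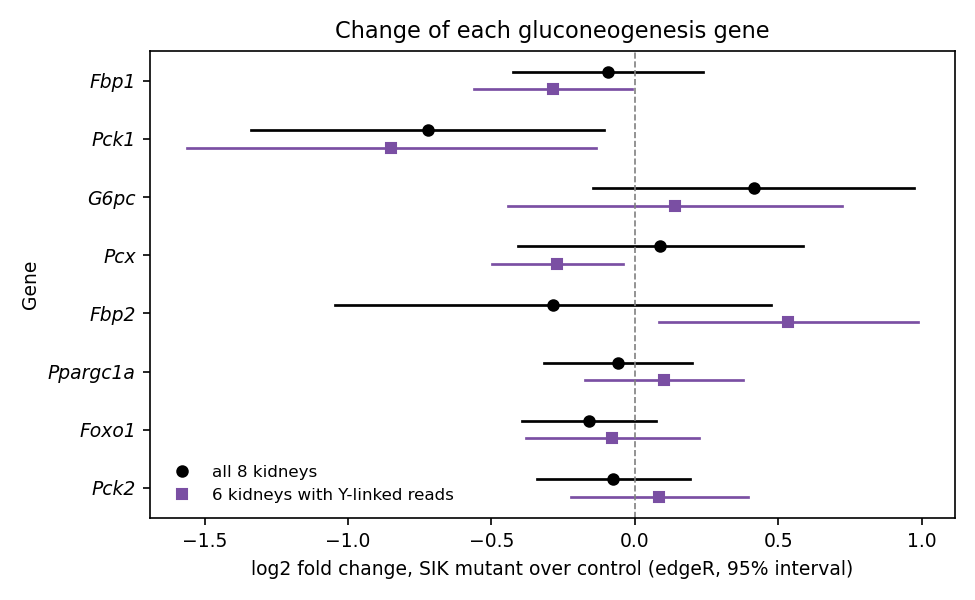
log2 fold change of each gene, SIK mutant over control, with 95% intervals from edgeR. Circles are all 8 kidneys, and squares are the 6 kidneys with Y-linked reads. *Pck1* lies below 0 in both, at -0.72 and -0.85, whereas *Pcx* (0.09 and -0.27) and *Fbp2* (-0.29 and 0.54) change sign.

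Over the 6 kidneys, 3 of the 8 genes were lower (*Pck1*, *Fbp1* and *Pcx*) and 1 was higher (*Fbp2*) at an unadjusted edgeR p under 0.05. The background in that comparison was 4.74% of all 14719 tested genes lower and 6.4% higher, and at FDR under 0.05 it was 0 of the 8 genes beside 21 (0.143%) of all. The groups did not overlap for *Fbp1*, *Pcx* and *Fbp2*, as for 21.8% of all tested genes. With DESeq2 over the 6 kidneys, 0 of the 8 were called at FDR under 0.05 beside 1.19% of all genes, and 3 (*Fbp1*, *Pcx* and *Fbp2*) had an unadjusted p under 0.05 beside 5.47%. Some markers of tubule segments moved in the same comparison, and whether the cells that express them carry Cre was not measured. Of the 10 proximal tubule markers, 3 were lower and 0 higher at an unadjusted edgeR p under 0.05, *Slc5a2* (-0.66), *Slc34a1* (-0.52, p 0.0037) and *Slc22a30* (-0.37, p 0.0434). By sign alone 7 of the 10 were lower and 3 higher, with *Slc22a8* the highest at 0.40 (p 0.0561). Of the 7 distal nephron markers, 2 were higher and 0 lower, *Aqp2* (0.997, p 0.0064) and *Slc12a1* (0.50, p 0.0294). By sign alone 6 of the 7 were higher and 1 lower. The summed distal markers were 1562 and 1620 TPM in controls 1 and 2 and 1810 to 2625 in mutants, without overlap, and the summed proximal markers were 5914 and 7005 against 5677 to 6170, with overlap. The part of these markers in the 6-kidney values was not tested. On the TPM scale only *Fbp2* of the 8 had an unadjusted p under 0.05, and the share of all genes was not computed there. Scaling to TPM also shifted all genes: their median log2 fold change was -0.0038 with edgeR and 0.09 with limma on log2(TPM + 1) over 8 kidneys, and 0.01 and 0.17 over the 6.

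The other genes of the pathway were followed in 7 lists with 93 genes, of which 89 passed the filter on low counts. At an unadjusted edgeR p under 0.05 over 8 kidneys, 1 was higher and 5 were lower, which is 6.74% beside 6.36% of all tested genes. Among the 6 kidneys 7 were higher and 14 lower, which is 23.6% beside 11.1% of all. At FDR under 0.05, 0 were called in either comparison, beside the 0 and 21 genes called among all tested.

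The reversible enzymes shared with glycolysis numbered 12, of which 1 was lower over 8 kidneys and 1 was higher and 2 were lower over the 6. *Gapdh*, the glyceraldehyde phosphate dehydrogenase, was at -0.20 over 8 kidneys and at -0.36 over the 6 (unadjusted edgeR p 0.0191). The phosphoglycerate mutase *Pgam2* was at -0.29 (p 0.0440) and -0.25 (p 0.0392). The aldolase *Aldoc* was at 0.04 over 8 kidneys and at 0.55 over the 6 (p 0.0095).

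Genes of precursor entry numbered 17, of which 1 was lower over 8 kidneys and 3 were lower over the 6. *Ldhb*, the lactate dehydrogenase subunit of oxidative tissues, was at 1193, 1181, 1216 and 1183 CPM in controls and at 1042, 984, 971 and 1127 CPM in mutants. All mutants lay below all controls. Its log2 fold change was -0.21 over 8 kidneys (SE 0.092, unadjusted edgeR p 0.0450, FDR 0.775, exact permutation p 0.0286, the smallest possible) and -0.19 over the 6 (p 0.0869). Over the 6 kidneys *Ldha* was at -0.29 (p 0.0310), *Ldhd*, the D-lactate dehydrogenase, at -0.63 (p 0.0383) and the triokinase gene *Tkfc* at -0.35 (p 0.0196), while over 8 they were at 0.0070, 0.05 and -0.14. The malate dehydrogenase *Mdh1* was at -0.14 over 8 kidneys (p 0.158).

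Of 11 genes for mitochondrial carriers and substrate uptake, 1 was higher over 8 kidneys and 2 were lower over the 6. *Slc38a3*, the glutamine transporter of the basolateral membrane, was at 54.0, 67.7, 46.1 and 46.9 CPM in controls and at 106, 96.2, 66.5 and 65.7 CPM in mutants. Mutants 1 and 2 lay above every control, and mutants 3 and 4 lay just below control 2. This was a log2 fold change of 0.64 over 8 kidneys (SE 0.187, unadjusted edgeR p 0.0069, FDR 0.576, exact permutation p 0.0857) and 0.47 over the 6 (p 0.0615). The mitochondrial pyruvate carrier subunits *Mpc1* and *Mpc2* were at -0.05 and -0.13 over 8 kidneys, and at -0.22 each over the 6, with p of 0.0523 and 0.0380. The dicarboxylate carrier *Slc25a10* was at -0.02 over 8 and at -0.28 over the 6 (p 0.0437).

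Of 5 genes for glucose-6-phosphate handling and glucose exit, 4 were tested, of which 0 passed an unadjusted p under 0.05 over 8 kidneys. *Slc37a4*, the transporter that brings glucose-6-phosphate to the G6pc enzyme, was at 299.5, 303, 217 and 184 CPM in controls and at 211, 206, 200 and 246 CPM in mutants. Controls 1 and 2 lay above all other kidneys, and controls 3 and 4 lay at either side of mutants 1 to 3. Its log2 fold change was -0.22 over 8 kidneys (p 0.226) and -0.47 over the 6 (SE 0.104, unadjusted edgeR p 0.0016, FDR 0.191), while that of *G6pc* was positive in both. The glucose transporter of the proximal tubule, *Slc2a2*, was at -0.16 and -0.26 (p 0.148 and 0.0235), and *Slc2a1* was at -0.03 and 0.26 (p 0.852 and 0.0462).

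A list of glycolytic steps and their regulators numbered 15, of which 13 were tested. Over 8 kidneys 1 was lower, *Pdk2*, at -0.28 (unadjusted edgeR p 0.0347), and it was at -0.31 over the 6 (p 0.0460). Its product inhibits pyruvate dehydrogenase and so spares pyruvate for carboxylation, unlike the enzymes that make up most of the list. Over the 6 kidneys 4 others were higher. The pyruvate kinase *Pkm* was at 0.02 over 8 kidneys (p 0.895) and 0.26 over the 6 (p 0.0287), and *Pfkfb3*, which makes the activator of glycolysis fructose-2,6-bisphosphate, was at 0.25 (p 0.316) and 0.66 (p 0.0152). *Hk2* and *Pfkfb1* were near the floor, at 0.198 to 3.17 and 0.296 to 1.59 CPM over all 8 kidneys, where 3 counts are worth 0.263 to 0.304 CPM.

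Of 22 transcriptional regulators, 21 were tested, of which 0 had an unadjusted p under 0.05 over 8 kidneys. *Creb1*, which encodes CREB itself, was at 20.4, 18.8, 28.5 and 29.1 CPM in controls and at 28.9, 26.0, 24.4 and 24.7 CPM in mutants. Its log2 fold change was 0.10 over 8 kidneys (p 0.519) and 0.42 over the 6 (SE 0.117, unadjusted edgeR p 0.0063, FDR 0.284), where both controls lay below all mutants. The estrogen-related receptor *Esrra* was at -0.18 and -0.28 (unadjusted edgeR p 0.104 and 0.0249). *Hnf4a*, the regulator highest in TPM, was at 0.08 and 0.0023.

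Of 11 genes of insulin and glucagon signaling, 2 were lower over 8 kidneys and over the 6, *Gcgr* and *Irs2* in both. *Gcgr*, the glucagon receptor, was at 21.9, 25.7, 26.2 and 28.6 CPM in controls and at 19.9, 16.9, 19.3 and 20.3 CPM in mutants. All mutants lay below all controls. The log2 fold change was -0.43 over 8 kidneys (SE 0.107, unadjusted edgeR p 0.0027, FDR 0.456, exact permutation p 0.0286, the smallest possible) and -0.31 over the 6 (p 0.0377). *Irs2*, an adaptor of the insulin receptor that CREB is known to induce in liver, was at 21.0, 42.4, 23.4 and 35.4 CPM in controls and at 19.2, 22.5, 17.7 and 19.0 CPM in mutants. Only mutant 2 lay above a control, control 1. Its log2 fold change was -0.64 (SE 0.212, unadjusted edgeR p 0.0137, FDR 0.702) and -0.69 over the 6 (p 0.0197). *Akt1* and *Stk11*, the members highest in TPM, were at -0.0091 and -0.02 over 8 kidneys.

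**Figure D4:**
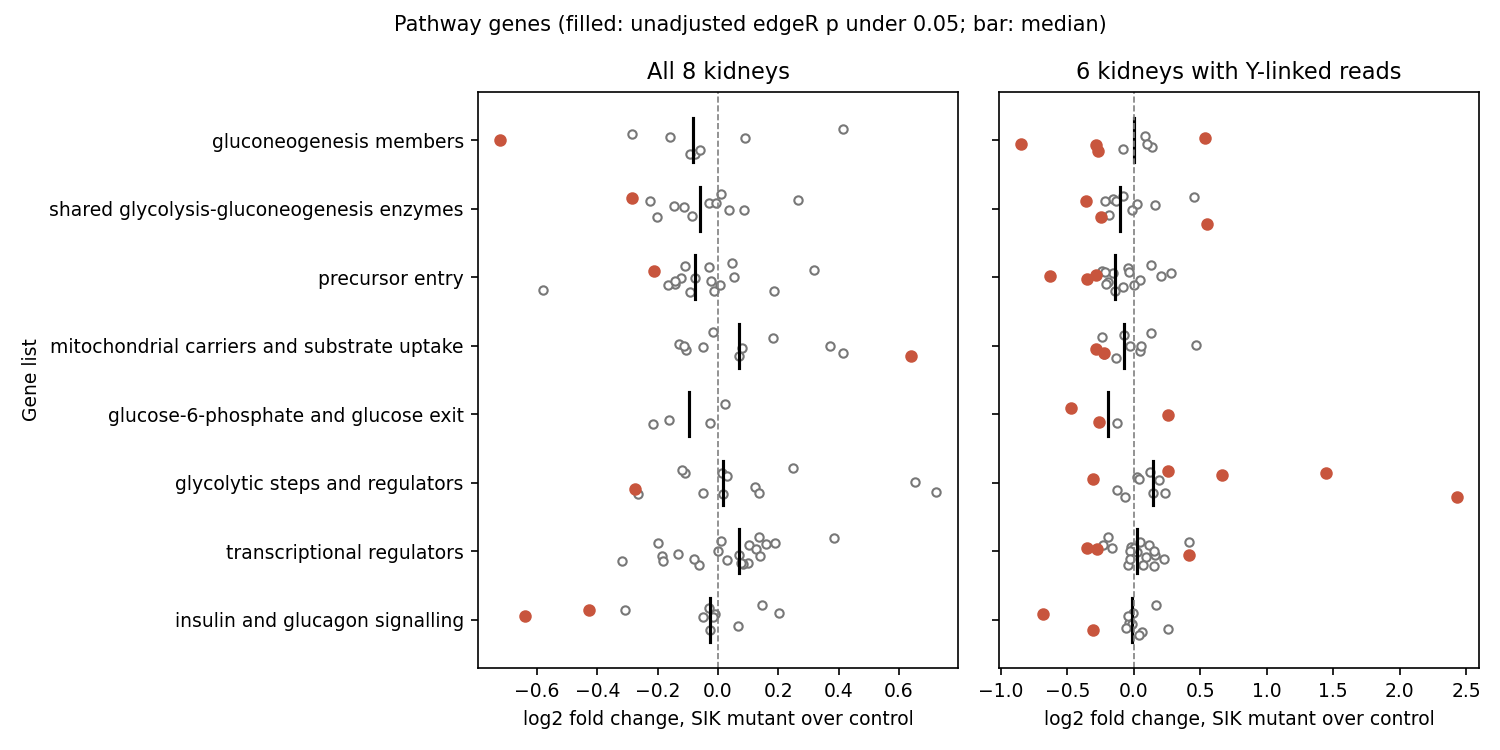
log2 fold change, SIK mutant over control, of each tested gene of the 8 members and the 7 other pathway lists, with all 8 kidneys on the left and the 6 with Y-linked reads on the right, on separate axes. Filled points have an unadjusted edgeR p under 0.05, open points do not, and black bars are list medians. Filled points number 7 on the left and 25 on the right, and none passed FDR under 0.05.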

How the data were processed

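Whole-kidney RNA of 8 mice was sequenced on the BGISEQ500 platform, with 1 library and 1 gene table per kidney. The submitters' processing notes name FastQC, STAR 2.7.2b, RSEM 1.3.0, DESeq2 and the build mm10; the annotation release and the use of strand are not given in the sources used here. The authors deposited expected counts, the RSEM estimates of reads for each gene without normalization, which were rounded to whole numbers for count tests. The posterior mean counts deposited by the authors served as an alternative. The TPM values deposited by the authors are scaled to effective length and library total. The other values used, the posterior standard deviations and effective lengths, were deposited by the authors as RSEM wrote them. Identifiers were matched to GENCODE M21 without version for 55141 of 55401 genes, which gave symbols and coordinates (GRCm38).

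Groups and replicate numbers came from the sample titles and genotypes. The main test was edgeR 4.0.16 (R 4.3.3) with TMM, filterByExpr, the quasi-likelihood F test and Benjamini-Hochberg adjustment over all 14326 genes tested, without covariate or block. CPM values use the TMM factors (0.903 to 1.05). For single genes an exact two-sided permutation of the CPM went through 70 assignments, or 15 for 2 against 4 kidneys. Replicate pairs within groups differed beyond sampling noise (chi-square per degree of freedom 9.44 to 53.8 over 12 pairs). Counts limit precision most for genes near the floor of 3 counts (0.263 to 0.304 CPM). They also add to the spread of genes with few counts, such as *Pck2* at 115 to 169, and p-values cover the spread among kidneys. Alternatives used DESeq2 1.42.0, limma 3.58.1 on log2(TPM + 1) or log2(TPM + 0.1), other filters and covariates, and subsets of kidneys. Scripts were tested on simulated data. DESeq2 and limma on TPM over the 6 kidneys with Y-linked reads were added after seeing the data.

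The genes, lists, motifs and tests were chosen with earlier results of these data known. Named genes were the 8 members, the 3 targeted kinases and, of each pathway list, genes with an unadjusted p under 0.05 in either edgeR comparison plus the 2 with the highest mean TPM, of which some are not reported here. The cell type markers given by name were named after their values were seen. Where a symbol had 2 rows (*Aldoa*), the row with more counts was used. No set test was run.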

Additional observations from a re-analysis of the deposited data

How the results depend on the processing

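Over 25 alternatives, no member was called at FDR under 0.05. *Pck1* (-0.98 to -0.50, unadjusted p 0.0038 to 0.0847, under 0.05 in 19 of 25) and *G6pc* (0.13 to 0.58) kept their direction in all 25. The proximal tubule covariate was the mean log2 CPM of the 10 proximal tubule markers. It was 8.20 and 8.27 in controls 3 and 4 and 9.25 to 9.51 in the other 6 kidneys. Single markers did not all follow this gap. *Slc7a13* was at 2.29 and 2.28 CPM in controls 3 and 4 against 363 to 652, and *Slc22a30* at 12.2 and 12.1 against 125 to 208. *Lrp2* was at 1628 and 1719 against 1335 to 1801, and *Cubn* at 385 and 439 against 324 to 418. The summed TPM of the 10 was 6028 and 6399 against 5677 to 7005. Since the covariate set the same kidneys apart as the Y-linked covariate, it is no separate check of tubule content. The log2 fold changes turned as follows, in the order 6 kidneys with edgeR, Y-linked covariate, proximal tubule covariate, DESeq2 on 6 kidneys and limma on log2(TPM + 1) of 6 kidneys. *Pck2* went to 0.085, 0.082, 0.028, 0.080 and 0.081, *Fbp2* to 0.54, 0.56, 0.32, 0.53 and 0.67, *Pcx* to -0.27, -0.29, -0.15, -0.28 and -0.077, and *Ppargc1a* to 0.10, 0.093, 0.045, 0.096 and 0.31. *Foxo1* turned only in the last, to 0.13. Over 8 kidneys, limma on log2(TPM + 1) and log2(TPM + 0.1) turned *Fbp1* to 0.017 in both and *Ppargc1a* to 0.066 and 0.074, and the latter pseudocount moved the median of all genes by 0.110. Leaving out 1 kidney gave -0.13 to -0.01 for *Pck2*, -0.19 to -0.02 for *Fbp1*, -0.50 to 0.095 for *Fbp2* (turned without control 3), -0.077 to 0.27 for *Pcx* (-0.011 without control 3, -0.077 without control 4), -0.13 to 0.016 for *Ppargc1a* (turned without mutant 1), -0.25 to -0.11 for *Foxo1*, -0.98 to -0.50 for *Pck1* and 0.24 to 0.58 for *G6pc*. The cause was not tested.

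Members with an unadjusted p under 0.05 numbered 1 in the comparison as reported, 2 with limma on either TPM scale, 4 with edgeR on 6 kidneys and with the Y-linked covariate, 3 with DESeq2 on 6 kidneys, and 0 to 2 when 1 kidney was left out (0 without mutant 2 or mutant 3, 2 without control 1). The share of all genes at that p was 6.36% as reported, 11.1% with edgeR on 6 kidneys and 5.47% with DESeq2 on 6 kidneys. For the other settings named here it was not computed, so their counts have no background beside them. Genes called at FDR under 0.05 among all tested numbered 0 as reported, 71 with DESeq2, 2 with limma-voom, 4 and 5 with limma on log2(TPM + 1) and log2(TPM + 0.1), 9 with no filter, 1 with legacy off, 2 with the robust option and 3 with posterior mean counts. They numbered 17 with either covariate, 21 on 6 kidneys, 185 with DESeq2 and 39 with limma on TPM of 6 kidneys, and 0 to 1 when 1 kidney was left out.

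Kidneys with the same number deviated together in no consistent way (correlations of -0.156, 0.0531, 0.0427 and -0.288). These few correlations also carry the gap between controls with and without Y-linked reads, so they cannot decide whether the numbers pair the samples. With the replicate number as a block, *Pck1* was at -0.73 (unadjusted p 0.0262), and 1 member had an unadjusted p under 0.05, as without it.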

Other observations

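The genes whose log2 CPM followed *Pck1*, *G6pc* and *Fbp1* most closely over the 6 kidneys with Y-linked reads were ranked among 9268 genes with a mean of at least 10 CPM. For *Pck1* these were *Cox7a2* (a cytochrome c oxidase subunit, Pearson r 0.995), *Grb2* (an adaptor of receptor tyrosine kinases, 0.990) and the ferritin light chain pseudogene *Ftl1-ps1* (0.988). For *G6pc* they were *Xbp1*, a factor of the unfolded protein response (0.990), *Acnat2* (0.989) and *Nectin3* (0.981). For *Fbp1* they were the ferritin light chain gene *Ftl1* (0.992), *Cmbl* (0.991) and *Pcbd1* (0.991). Over all 8 kidneys these values were 0.869, 0.931 and 0.892 for *Pck1*, 0.667, 0.800 and 0.845 for *G6pc*, and 0.885, 0.977 and 0.690 for *Fbp1*. With 6 points that share libraries, depth and scaling factors, the ranking is a description and carries no test.

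Among the members themselves over the 6 kidneys, r was 0.91 for *Pck1* and *Pcx*, 0.83 for *Pck1* and *Fbp1*, 0.74 for *Fbp1* and *Pcx*, and 0.07 for *Pck1* and *G6pc*. Over all 8 kidneys r was 0.05, 0.55, 0.65 and -0.12 for these pairs in the same order, so *Pck1* and *Pcx* did not vary together there. Of 16 groups of 4 kidneys examined, 0 held a kidney beyond Dixon's critical value of 0.829.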
